A study of Rattus norvegicus with 12 samples.

Results

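The change in gene expression that followed the move of rat cardiac fibroblasts to a soft hydrogel was compared between late and early passage. The value of interest for each gene is the interaction, which is the soft gel minus plastic difference at passage 6 minus the same difference at passage 3, on the log2 scale. It used all 12 libraries of the series, 3 in each of 4 groups: soft gel at passage 6, plastic at passage 6, soft gel at passage 3 and plastic at passage 3. Every group held fibroblasts from the ventricles of adult wild-type rats, grown in DMEM/F-12 medium with 20% fetal bovine serum. Plastic is tissue culture polystyrene, the rigid material of ordinary dishes. The soft gel is a flat hydrogel of poly(ethylene glycol) norbornene, on which the treated cells spent 48 h. The labels give the same 48 h for the plastic libraries. At each passage the cells are lifted off their dish and replated. The labels call the replicates biological without naming animals or cultures, so the p-values cover only the spread among these libraries. Passage cannot be told apart from anything else that set the cultures of passage 6 and passage 3 apart.

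Cardiac fibroblasts make and remodel the extracellular matrix of the heart, and they sense the stiffness of what they adhere to through integrins, focal adhesions and the actin cytoskeleton. On rigid plastic they tend to turn into contractile myofibroblasts, and a soft substrate is known to hold back part of that change. Repeated passaging moves primary cells towards senescence, a lasting arrest of division that comes with the release of inflammatory proteins. The interaction asks whether cells that were passaged more still answer the soft surface in the same way.

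The libraries held between 47834926 and 71464905 counts. Of 32623 genes in the table, 12553 had no count in any library and 14660 had enough counts to be tested. No gene names accompany the Ensembl identifiers in the files, so genes are described as groups, 4 of them by identifier, and the labelled cell type was not checked against fibroblast markers. A soft gel and a plastic library with the same passage and replicate number are called a pair, because the libraries of such a couple departed together from the means of their groups. Levels are given as CPM, the counts per TMM-scaled library total on a common scale.

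With a term for each of the 6 pairs in the model, the soft gel difference depended on passage for 314 genes, 2.14% of the 14660 tested (edgeR adjusted p under 0.05). The difference was higher at passage 6 for 118 genes, 0.805% of those tested, and lower at passage 6 for 196 genes, 1.34%. The median size of the interaction among the called genes was 0.94 on the log2 scale, or 1.91-fold, and the smallest was 1.39-fold. The interaction was at least 2-fold for 138 of the genes and at least 4-fold for 31. In bulk RNA, fewer cells of a type and less RNA per cell cannot be told apart. The calls rest on the pair terms: without them edgeR called 0 genes (0% of those tested), with 1044 at an unadjusted p under 0.05, and DESeq2 called 103.

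The 3 pair differences of passage 6 lay entirely above or below the 3 of passage 3 for 313 of the 314 genes. Over all tested genes such a separation was found for 3234, or 22.1%. The calls rest on the same pair differences, so the first count describes the genes and is no test.

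The 314 genes were of 3 kinds. In 145 the soft gel fold changes of the passages had opposite signs, in 137 they had the same sign and were larger in size at passage 6, and in 32 they had the same sign and were larger in size at passage 3. The kinds go by the estimated fold changes, whether or not these passed a test. Of the 145 genes, 36 passed the soft gel against plastic test at both passages (edgeR adjusted p under 0.05). For the others the difference did not pass at 1 of the passages, so its sign there was not settled. Among the 118 genes with a higher difference at passage 6, the 3 kinds held 52, 56 and 10 genes. Among the 196 with a lower difference they held 93, 81 and 22. Without pair 1, 2 or 3 of passage 3 the genes of opposite sign numbered 22, 21 and 19, those larger at passage 6 numbered 12, 18 and 13, and those larger at passage 3 numbered 0, 4 and 1. Without pair 3 of passage 6 the kinds held 66, 62 and 17 genes. A call on the difference between passages favours opposite signs, so the kinds describe the called genes and are no test. The same split over all tested genes was not counted.

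**Figure D1:**
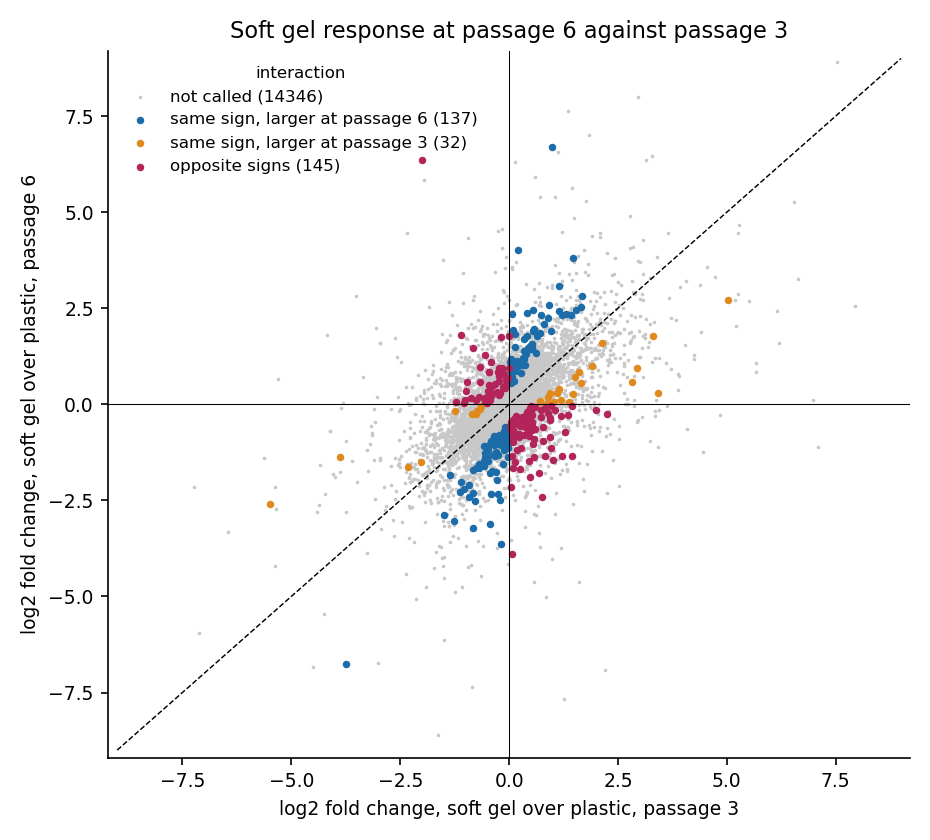
Each point is 1 of 14660 genes, with its log2 fold change of soft gel over plastic at passage 3 on the horizontal axis and at passage 6 on the vertical axis, both from the fit with pair terms; the dashed line marks equal values. The 137 blue genes lie steeper than the line, the 32 orange genes flatter, and the 145 red genes lie in the 2 quadrants where the signs differ.

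At passage 6 the called genes mostly lay on 1 side of no change, and at passage 3 on both sides. The genes were split by the sign of the passage 6 minus passage 3 difference. The counts and medians by passage follow in part from that split and are no test. Of the 118 genes, 108 had a higher and 10 a lower level on soft gel at passage 6, against 56 higher and 62 lower at passage 3. Their median log2 fold change on soft gel was 0.91 at passage 6 and -0.042 at passage 3, and the median of its size was 0.96 at passage 6 and 0.45 at passage 3. Of the 196 genes, 22 had a higher and 174 a lower level on soft gel at passage 6, against 115 higher and 81 lower at passage 3. Their median log2 fold change was -0.79 at passage 6 and 0.10 at passage 3, with a median size of 0.82 at passage 6 and 0.42 at passage 3. Over all tested genes the median was 0.00031 at passage 6 and -0.0092 at passage 3, values near 0 that the TMM scaling largely sets.

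Few of the genes that passed the substrate test at a single passage also passed the interaction test. At passage 6 the soft gel difference passed for 3650 genes, 24.9% of those tested, and for 2749 at passage 3, or 18.8%. The second count was 1093, 1156 and 1050 without pair 1, 2 or 3 of passage 3. Of the 1944 genes that passed at passage 6 but not at passage 3, the interaction was called for 145, or 7.46%. Of the 1043 that passed at passage 3 but not at passage 6, it was called for 56, or 5.37%. Of the 1670 that passed at both with the same sign, it was called for 77, or 4.61%. No gene that passed at neither passage was called among 9967. For most genes on only 1 of the substrate lists, these libraries therefore did not show that the passages differed.

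Of the 14660 tested genes, 36 passed at both passages in opposite directions, and the interaction was called for each of them. Effects of opposite sign add in size in the interaction, so these calls were close to fixed beforehand and are no test. The soft gel lowered 30 of the 36 at passage 6 and raised them at passage 3, and it did the reverse for 6. In all 36 every one of the 6 pairs showed the direction of its passage, which describes the pairs that the fit used. Leaving out pair 1, 2 or 3 of passage 3 gave 12, 10 and 6 such called genes. Leaving out pair 1, 2 or 3 of passage 6 gave 62, 57 and 29. Their median size of change was 0.58 at passage 6 and 0.50 at passage 3 on the log2 scale, with a range of 0.24 to 1.44 at passage 6 and of 0.23 to 1.44 at passage 3. The median level of the 36 was 65.2 CPM over the 12 libraries, and the lowest among the 10 described next was 1.62 CPM. More abundant genes were called more often over all tested genes, so this level describes the 36 and is no test. Among the 10 with the largest smaller change, 9 were lowered at passage 6, by log2 fold changes from -1.44 to -0.59, and raised at passage 3, by 0.60 to 1.44. The remaining 1 stood at 0.58 at passage 6 and -0.67 at passage 3.

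Counting the pairs alone, with no model, gave the wider frame for these crossings. Soft gel was lower in the 3 pairs of passage 6 and higher in the 3 of passage 3 for 303 genes, 2.07% of those tested. Of these genes 69 were called, or 22.8%. The reverse held for 251 genes, 1.71%, of which 30 were called. Soft gel was higher in all 6 pairs for 2106 genes (14.4% of those tested) and lower in all 6 for 2236 (15.3%). Of these, 52 (2.47%) and 63 (2.82%) were called on a difference in size, near the 2.14% called over all tested genes.

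The mean levels show in which group the called genes stood apart. Of the 196 genes with a lower difference at passage 6, 109 (55.6%) were highest in the plastic group of passage 6, and 103 (52.6%) were lowest in the soft gel group of passage 6. Over all tested genes plastic at passage 6 was the highest group for 23.0% and soft gel at passage 6 the lowest for 27.4%. Of the 118 genes with a higher difference, 74 (62.7%) were highest in soft gel at passage 6 and 56 (47.5%) were lowest in plastic at passage 6, against 29.1% and 23.0% of all tested genes. A called gene must differ in this way in some pair of groups, so these shares describe the genes and are no test.

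The passages moved apart on both substrates, in opposite directions. For the 196 genes the median log2 level on plastic was higher at passage 6 than at passage 3 by 0.60, and on soft gel the passage 6 minus passage 3 difference was -0.31. For the 118 genes the same differences were -0.27 on plastic and 0.64 on soft gel. These medians were computed from group means without pair terms, and replicate numbers do not link the passages, so no test is attached to them.

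**Figure D2:**
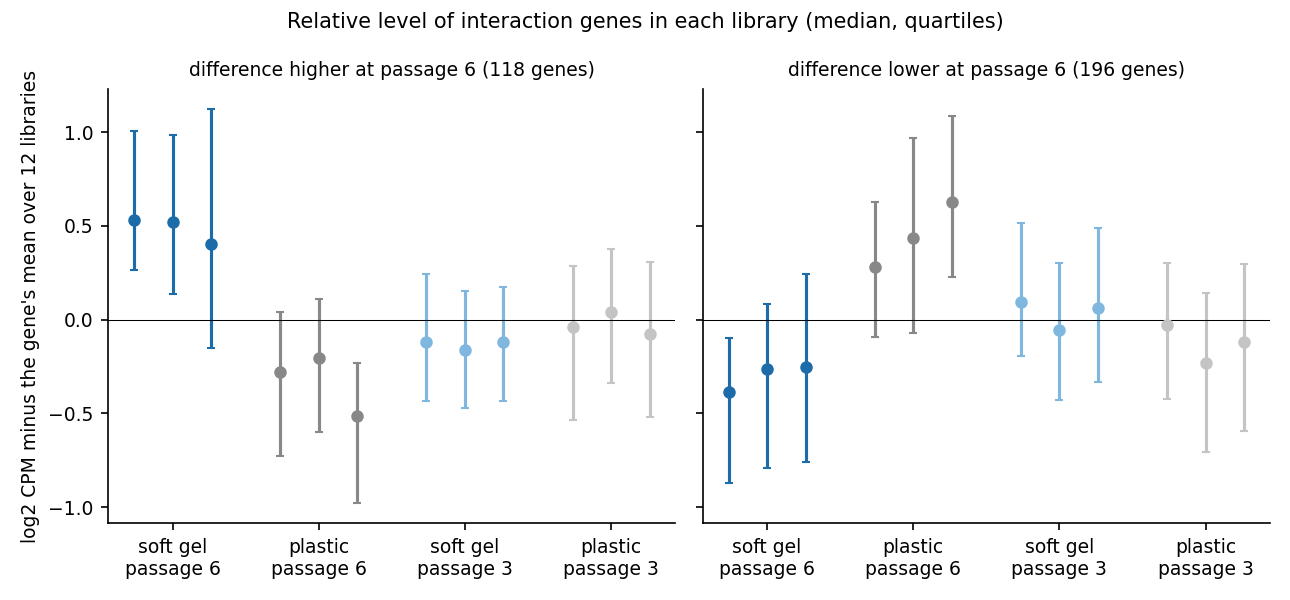
For each of the 12 libraries the point is the median, over the 118 genes with a higher difference at passage 6 (left) or the 196 with a lower difference (right), of the log2 CPM minus the gene's mean over all libraries, and the bar spans the quartiles. In the left panel the soft gel libraries of passage 6 have medians of 0.40 to 0.53 and the plastic libraries of passage 6 medians of -0.51 to -0.20; in the right panel the order is reversed, with -0.39 to -0.25 and 0.28 to 0.63. The libraries of passage 3 have medians between -0.23 and 0.10.

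The genes with a lower difference took up a sizeable part of the RNA. Their summed level was 35094, 40345 and 38411 CPM in soft gel libraries 1 to 3 of passage 6, and 56870, 69263 and 75680 CPM in the plastic libraries of passage 6. On soft gel at passage 3 it was 46578, 41046 and 45726 CPM, and the plastic libraries of passage 3 had 47415, 40386 and 44232 CPM. The plastic libraries of passage 6 were thus above all others and the soft gel libraries of that passage below all others, while the substrates overlapped at passage 3. The 118 genes with a higher difference summed to 11970, 10746 and 9783 CPM on soft gel at passage 6, and to 8303, 6839 and 5405 CPM on plastic at passage 6. The passage 3 sums were 6963, 7218 and 7306 CPM on soft gel and 8556, 9028 and 8681 CPM on plastic, so that here the groups of both passages did not overlap and the order turned round. These sums follow from how the genes were called.

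The share of all counts in the 10 most abundant genes was lower on soft gel in all 6 pairs. Soft gel minus plastic, it differed by -1.36, -4.00 and -2.66 percentage points in pairs 1 to 3 of passage 6 and by -1.15, -0.91 and -0.67 in those of passage 3 (two-sided exact permutation p = 0.10, the smallest that 3 pairs against 3 allow, and 0.17 after adjustment over the 5 pair measures compared). Its part in the result was not tested. With DESeq2's size factors in place of TMM, edgeR called 310 genes, of which 301 were among the 314 in the same direction.

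By the rule for single genes, the 12 with the largest interaction in each direction were taken among called genes with separate pair differences and at least 5 CPM in 1 group. In the higher direction the interaction ran from 1.66 to 2.51. All 12 passed at passage 6 and 8 of them did not pass at passage 3, and 11 were raised by soft gel at passage 6. In the lower direction it ran from -3.96 to -2.19. There, 10 were lowered by soft gel at passage 6 and 2 had a higher level on it, 11 passed at passage 6 and 7 of these did not pass at passage 3. The first 2 of each direction are given by identifier.

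ENSRNOG00000001469 was among the most abundant genes, at a higher mean level than 99.7% of those tested. On soft gel it stood at 124, 167 and 588 CPM in libraries 1, 2 and 3 of passage 6, and on plastic at 1188, 3285 and 10178 CPM. At passage 3 it stood at 1883, 844 and 1481 CPM on soft gel and at 2438, 578 and 1458 CPM on plastic. Within passage 6 every soft gel library was below every plastic library, and library 3 was the highest on both substrates, while the substrates overlapped at passage 3. Pairs 1 to 3 of passage 6 had log2 differences of -3.26, -4.29 and -4.11, and those of passage 3 had -0.37, 0.55 and 0.020. The interaction was -3.96 ± 0.30 (SE, edgeR adjusted p = 0.00188).

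ENSRNOG00000003171 was a gene of low level that the soft gel lowered at both passages, further at passage 6. It had 22, 4 and 0 counts in the soft gel libraries of passage 6, which is 0.358, 0.067 and 0 CPM, against 44.8, 4.03 and 0.697 CPM on plastic. At passage 3 it had 0.381, 0.461 and 0.357 CPM on soft gel, against 3.35, 6.33 and 7.02 CPM on plastic. The plastic libraries of passage 6 spread widely, while those of passage 3 lay close together. Pairs 1, 2 and 3 of passage 6 had log2 differences of -6.84, -5.34 and -4.47, and those of passage 3 had -3.03, -3.69 and -4.18. The smallest difference of passage 6 nearly met the largest of passage 3. That passage 6 value, from pair 3, set 0 counts on soft gel against 41 on plastic. Its size was therefore limited by the prior count of 2 that is added before the log. The interaction was -3.02 ± 0.45 (SE, edgeR adjusted p = 0.0168), and the call was lost without pair 1 of passage 6 (-2.41, adjusted p = 0.133), pair 1 of passage 3 (adjusted p = 0.0572) or pair 2 of passage 3 (adjusted p = 0.0910).

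ENSRNOG00000021735 was raised by soft gel in all 6 pairs. It stood at 14.4, 22.4 and 43.5 CPM on soft gel at passage 6, against 1.36, 1.91 and 2.04 CPM on plastic. At passage 3 it stood at 34.3, 33.5 and 22.9 CPM on soft gel, against 11.6, 11.6 and 9.34 CPM on plastic. The soft gel levels of the passages overlapped and the plastic levels did not, being lower at passage 6. Its log2 differences within pairs were 3.37, 3.53 and 4.39 at passage 6, against 1.56, 1.52 and 1.29 at passage 3. The interaction was 2.35 ± 0.24 (SE, edgeR adjusted p = 0.00374).

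ENSRNOG00000018735 was lowered by soft gel in all 6 pairs, less at passage 6. It stood at 11.5, 11.8 and 0.126 CPM on soft gel at passage 6, against 24.6, 37.5 and 0.289 CPM on plastic. At passage 3 it stood at 1.14, 0.256 and 1.10 CPM on soft gel, against 19.2, 1.13 and 21.6 CPM on plastic. Pair 3 of passage 6 and pair 2 of passage 3 were far below the other pairs of their passage on both substrates, and the counts in pair 3 of passage 6 were 10 on soft gel and 17 on plastic. Within pairs the log2 differences were -1.09, -1.67 and -1.02 at passage 6, against -4.04, -2.01 and -4.25 at passage 3. The interaction was 2.51 ± 0.40 (SE, edgeR adjusted p = 0.0212), and the call was lost without pair 1 or pair 3 of passage 3 (adjusted p = 0.127 and 0.138).

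**Figure D3:**
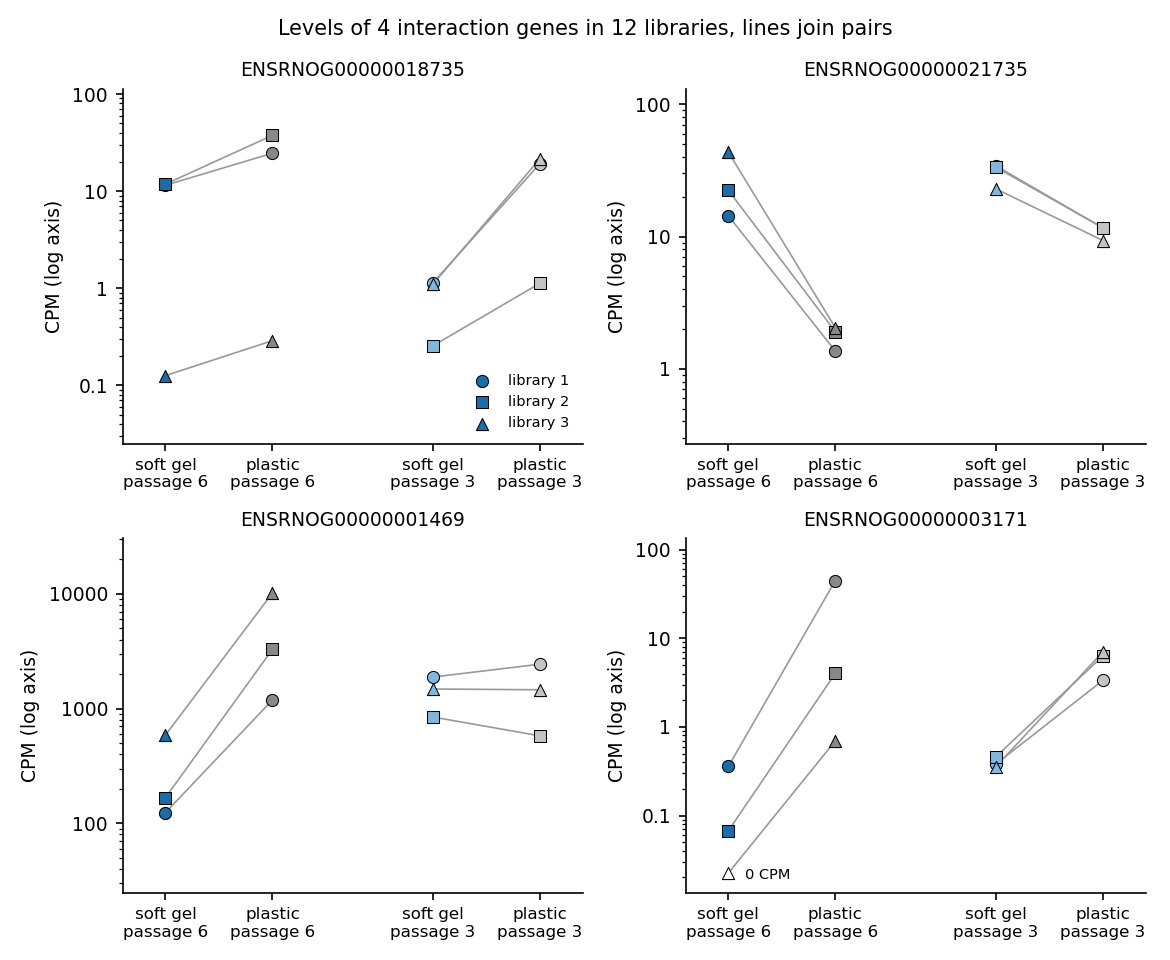
Levels of the 4 genes in each of the 12 libraries, as CPM on a log axis; marker shapes give the library number, grey lines join the soft gel and plastic library of a pair, and the open triangle stands for 0 CPM. The lines of ENSRNOG00000001469 are steep at passage 6 and nearly flat at passage 3, and for ENSRNOG00000018735 soft gel lies below plastic in all 6 pairs, with a flatter line at passage 3 for pair 2 than for pairs 1 and 3.

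Across all genes, the responses of the passages were alike in the main. Over the 10014 genes with a mean of at least 5 CPM, Pearson's r between the soft gel responses of pairs, which share no library, was 0.676 to 0.757 for the 3 couples of pairs within passage 6 and 0.784 to 0.876 for the 3 within passage 3. For the 9 couples that cross the passages it was 0.534 to 0.665, lower than within either passage. Genes are not independent replicates, and these values are a description. The covariance between pairs leaves out the scatter that belongs to a single pair. By that measure the response had an SD over genes of 0.463 at passage 6 and 0.408 at passage 3 on the log2 scale. The covariance between passages was 0.792 of the geometric mean of the covariances within them. Without pair 1, 2 or 3 of passage 6 this ratio was 0.774, 0.768 and 0.839. The SD at passage 6 was then 0.477, 0.475 and 0.434.

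Per pair, more genes differed at least 2-fold between the substrates at passage 6, but the tests over pairs did not pass 0.05. The within-pair difference was at least 2-fold for 2142, 2133 and 2257 genes in the pairs of passage 6 and for 1690, 1851 and 1602 genes in those of passage 3, and these did not overlap (two-sided exact permutation p = 0.10, the smallest possible, and 0.17 after adjustment). The median absolute log2 difference was 0.290, 0.289 and 0.289 at passage 6 and 0.255, 0.287 and 0.230 at passage 3, with the same p. Among the 1670 genes that passed at both passages with the same sign, the change was larger in size at passage 6 for 993, or 59.5%, and its median size was 0.74 at passage 6 and 0.64 at passage 3.

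Scatter between pairs was also larger at passage 6, and it enters the counts of genes, those of 2-fold differences included. The coefficient of biological variation in fits with pair terms was 16.6% for passage 6 alone and 9.45% for passage 3 alone. In the joint fit it was 13.3%, and that fit takes the spread of each gene as equal at the passages. When limma-voom with pair terms gave the passages separate weights, 0.782 for passage 6 and 1.28 for passage 3, the substrate difference passed for 3388 genes at passage 6 and for 4001 at passage 3. The order of these 2 counts is thus opposite to the 3650 and 2749 of the joint fit. The interaction was called for 467 genes under these weights, 304 of them among the 314 in the same direction, with 216 larger in size at passage 6, 48 larger at passage 3 and 203 of opposite sign.

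More abundant genes were called more often. With the tested genes in 5 equal bins by mean level, the called share was 0.205% in the lowest bin, up to 1.41 CPM, then 1.30%, 2.42% and 2.73%, and 4.06% in the highest bin, from 66.0 CPM. The median standard error of the interaction was 0.93 in the lowest bin and 0.12 in the highest on the log2 scale. In the highest bin 29 called genes had a higher and 90 a lower difference at passage 6, against 38 and 33 in the middle bin. A 2-fold interaction was not detectable for most genes of the lowest bin at this precision.

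The number of called genes also depended on single pairs, most on those of passage 3. Without pair 1, 2 or 3 of passage 3 edgeR called 34, 43 and 33 genes, and of these 34, 41 and 33 were among the 314 in the same direction. Without pair 1, 2 or 3 of passage 6 it called 459, 476 and 145 genes, with 246, 269 and 124 of them among the 314. Under all 11 alternatives with pair terms, 27 genes were called in the same direction, 8 with a higher and 19 with a lower difference at passage 6. Of these 27 genes, 17 had estimates of opposite signs at the passages, whether or not both passed. The other kinds held 10 genes larger in size at passage 6 and 0 larger at passage 3. ENSRNOG00000001469 and ENSRNOG00000021735 were among the 27.

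**Figure D4:**
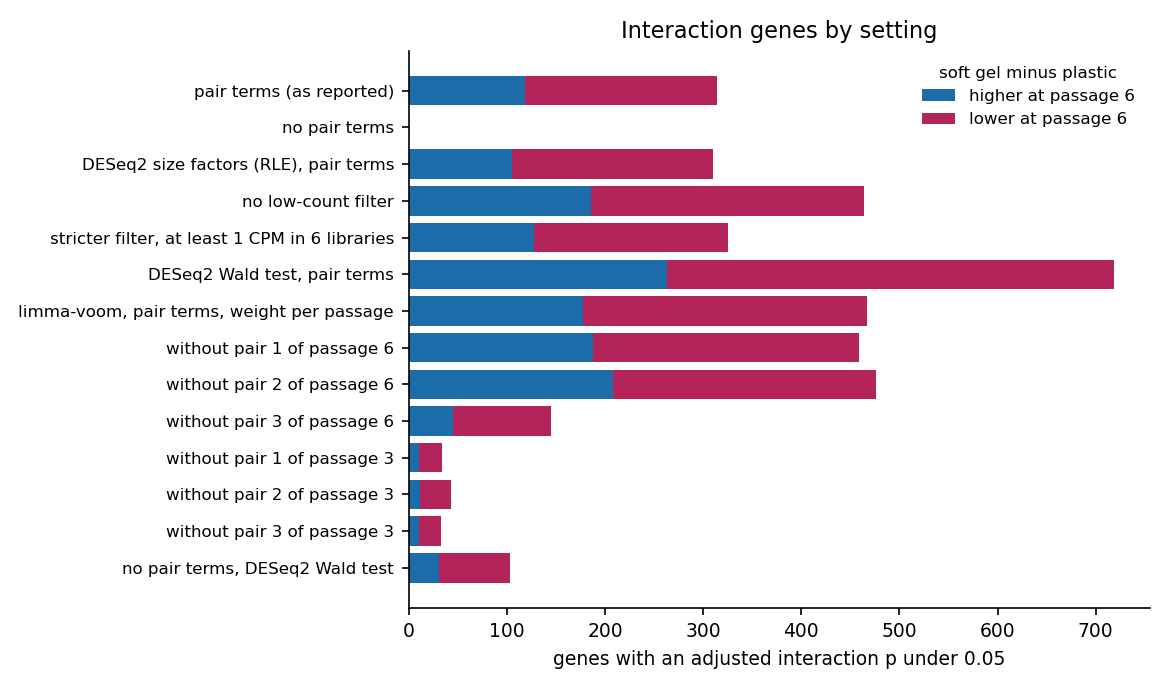
Number of genes with an adjusted interaction p under 0.05 in each setting, split into genes whose soft gel minus plastic difference was higher (blue) or lower (red) at passage 6. The lower part is the larger in every setting that called any gene; leaving out a pair of passage 3 leaves 33 to 43 genes, and edgeR without pair terms called 0.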

How the data were processed

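Per the submitters' processing notes, paired poly(A) reads of 150 bases went through FastQC 0.11.5, HISAT2 2.1.0 and Cufflinks with Cuffnorm 2.2.1, on the build Rnor_6.0. The authors deposited a single table of unnormalized counts for 12 libraries. How reads were counted, with which strand setting and annotation, is not given in the sources used here, so counts of overlapping genes or near-identical copies may be mixed. Of 32623 identifiers, 0 matched the RefSeq gene table (GRCr8), so the 35 gene and marker lists drawn up, and the genes fixed by name, could not be tested and no promoter sequence was assigned.

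Genes were filtered with filterByExpr (minimum count 10, total 15) and scaled by TMM. The interaction was tested with edgeR 4.0.16 (quasi-likelihood F test, R 4.3.3), with a term per pair and a soft gel effect per passage. Benjamini-Hochberg adjustment ran over all tested genes, with a threshold of 0.05. Standard errors come from the F statistic. Within-pair log2 differences used CPM with a prior count of 2. Alternatives were DESeq2 1.42.0, limma 3.58.1, other scaling and filters, no pair terms, and each pair left out in turn; a library without its partner adds nothing to this fit, so pairs were removed whole. The code was tested on simulated counts.

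The labels do not say that replicate numbers pair libraries. Deviations from the group mean of same-numbered soft gel and plastic libraries correlated across genes at 0.505, 0.555 and 0.717 (numbers 1 to 3 of passage 6) and at 0.230, 0.414 and 0.434 (passage 3), so they were treated as pairs. Between passages the values ran from -0.291 to 0.0389, so numbers do not pair passages. Chi-square per degree of freedom between replicates was at least 30.9, so none were duplicates. Counts carry no molecular identifiers. Single genes were ranked by size of interaction among called genes with separate pair differences and at least 5 CPM in 1 group, 12 per direction, 2 of them printed. The comparison, lists and rules were chosen with earlier results of these data known.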

Additional observations from a re-analysis of the deposited data

Results flagged for a closer look

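The soft gel difference itself differed between the passages, by the interaction test with pair terms, for 314 genes. Of the genes given by identifier, the interaction was 2.51 for ENSRNOG00000018735, 2.35 for ENSRNOG00000021735, -3.96 for ENSRNOG00000001469 and -3.02 for ENSRNOG00000003171 on the log2 scale. Groups of 3 libraries were not searched for single libraries that stand apart.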

How the results depend on the processing

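With no replicate block, that is without pair terms, edgeR called 0 genes in the interaction (0 higher, 0 lower and 0 of each kind), 1460 for soft gel at passage 6 and 337 at passage 3; the 4 single genes then had adjusted p between 0.261 and 0.912. DESeq2 without pair terms, chosen after the data were seen, called 103 genes, 31 higher and 72 lower, among the 4 only ENSRNOG00000021735. DESeq2 with pair terms called 719 genes, 263 higher and 456 lower, with 333 of opposite sign, 307 larger at passage 6 and 79 larger at passage 3. Without the low-count filter 186 genes were higher, 206 larger at passage 6 and 52 larger at passage 3. With limma-voom and passage weights 178 were higher, 216 larger at passage 6 and 57 passed at both passages in opposite directions. Leaving out 1 pair gave 33 to 476 called genes, 10 to 208 higher, 23 to 271 lower, 19 to 225 of opposite sign, 6 to 62 passing at both in opposite directions, 12 to 218 larger at passage 6 and 0 to 41 larger at passage 3; soft gel at passage 3 passed for 1050 to 3218 genes and at passage 6 for 2575 to 3402. DESeq2's size factors and the stricter filter kept every count within 1.5 times. No sign changed for the 4 single genes where they were tested, but ENSRNOG00000003171 did not pass the stricter filter. The causes were not tested, and each fit without a pair also had fewer libraries.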
